A study of Mus musculus with 14 samples.

Results

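The 10 genes described here, Fgf3, Fgf4, Fgf5, Fgf8, Fgf9, Fgf10, Fgf15, Fgf17, Fgf18 and Fgf20, encode secreted ligands of the fibroblast growth factor (FGF) family. Peaks of the deposited H3K27me3 table were assigned to a gene when they lay within 10 kb of its RefSeq gene body (mouse build mm10). This gave 48 of 74458 peaks, and 1 of them lay within reach of both Fgf3 and Fgf4. A gene window, meaning the sum of all peaks within 10 kb of 1 gene, existed for 30960 RefSeq genes, these 10 among them.

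FGF ligands bind receptor tyrosine kinases on neighbouring cells and signal mainly through ERK. Many of their genes are silent in embryonic stem cells and are later switched on in restricted tissues, and genes of this kind commonly carry H3K27me3, the repressive histone mark written by Polycomb repressive complex PRC2. Fgf4 differs from most of them in that mouse embryonic stem cells (mESCs) express and secrete it, and its signal prepares them for differentiation.

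The 7 libraries measured H3K27me3 by Cut&Tag, in which an antibody directs a transposase to the marked chromatin, in mESCs with a deletion made by CRISPR-Cas9. Of these libraries 3 carried the Hoxa deletion, which per the study removed Hoxa2 to Hoxa13, 2 carried the Wnt6 deletion, and 2 carried the Hmx1 deletion. The study describes the deletions as homozygous, and all cells were kept with leukaemia inhibitory factor on CD1 feeder cells, whose own chromatin can enter a library. The comparisons set 1 deletion against the pool of the other 2, since no column of unedited cells was used here. The study writes of a clone for each deletion, and the labels do not say whether replicates came from separate clones or cultures, so p-values measure only the spread between these libraries, which may be technical.

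The libraries held 6016500 to 36563541 counts over the peak list. In each deletion the deleted stretch retained 0.0944% to 0.553% of the level in the other deletions, as its label states. H3K27me3 over the 6 of 8 stem cell genes that had a window (Pou5f1, Nanog, Sox2, Klf4, Esrrb and Zfp42) lay between 5.73 and 18.5 CPM (counts scaled to a common library size) per kb of peak, around the median of all windows (9.36), and over the 5 of 7 feeder fibroblast genes that had one it lay between 3.10 and 48.9. None of the fibroblast genes passed the edgeR test in any comparison. Of all windows 18.3% passed in the Hoxa deletion, 0.0452% in the Wnt6 deletion and 0.0517% in the Hmx1 deletion. Of the 6 stem cell genes 1 passed, Klf4, higher in the Hoxa deletion (log2 fold change 0.60), as were 12.2% of all windows. Zfp42, on chromosome 8, went the other way there without passing (-0.55, edgeR adjusted p = 0.113). The mark does not measure expression, and the share of feeder chromatin was not measured.

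To show what lies under these peaks, the 250 bases before the start of 3 members are printed from RefSeq (GRCm38.p6, the assembly of mm10), each 5′ to 3′ on the gene's own strand with CpG dinucleotides in capitals. Fgf3 and Fgf4 were chosen because they are neighbours on chromosome 7 with very different levels of the mark, and Fgf18 because it holds the most CpGs of the members with a sequence. The table held such a sequence for 6 of the 10 members and not for Fgf8, Fgf15, Fgf17 or Fgf20.
Fgf3, chr7:144838362-144838611, plus strand: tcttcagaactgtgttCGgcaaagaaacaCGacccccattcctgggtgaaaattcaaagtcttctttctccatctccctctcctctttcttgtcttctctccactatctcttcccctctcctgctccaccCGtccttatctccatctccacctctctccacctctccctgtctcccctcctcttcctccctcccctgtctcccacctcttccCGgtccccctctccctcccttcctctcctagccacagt
Fgf4, chr7:144861136-144861385, plus strand: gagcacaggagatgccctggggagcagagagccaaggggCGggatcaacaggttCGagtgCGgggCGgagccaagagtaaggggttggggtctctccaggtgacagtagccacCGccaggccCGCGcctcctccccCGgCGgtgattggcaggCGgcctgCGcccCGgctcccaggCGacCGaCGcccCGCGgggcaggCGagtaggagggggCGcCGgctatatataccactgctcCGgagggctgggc
Fgf18, chr11:33147401-33147650, minus strand: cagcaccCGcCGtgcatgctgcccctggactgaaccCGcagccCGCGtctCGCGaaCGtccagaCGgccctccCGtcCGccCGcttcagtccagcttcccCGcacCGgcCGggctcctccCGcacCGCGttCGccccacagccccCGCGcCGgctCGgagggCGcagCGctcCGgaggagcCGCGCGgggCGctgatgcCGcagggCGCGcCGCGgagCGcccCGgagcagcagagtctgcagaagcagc
These stretches held 4 CpGs for Fgf3, 21 for Fgf4 and 37 for Fgf18, beside a median of 6 over 32851 mouse promoters. For the others the number was 8 for Fgf10, 11 for Fgf9 and 24 for Fgf5. Among these 6 members the H3K27me3 level of the window did not follow this count, since Fgf4 had many CpGs and little of the mark whereas Fgf3 had few CpGs and much of it. The count covers 250 bases before the start and the level covers all peaks within 10 kb, so they describe unlike stretches. At Fgf9 the 250 bases lay outside every peak. A link between CpG content and the mark was not tested. The motif GGGCGG, searched on both strands and itself holding a CpG, was present in 4 of the 6 members (all but Fgf3 and Fgf9) and in 32.7% of all promoters. A match is a description of the letters and not of a bound factor.

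Levels were scaled by TMM factors and given per kb of peak, so that genes with different peak widths can be set side by side. The members fell into 2 tiers. The means of 8 members over the 7 libraries lay between 29.1 and 63.0 CPM per kb, each above at least 84.4% of all tested gene windows. Fgf4 and Fgf17 lay near or below the median of all windows, at the 44.3 and 35.2 percentiles.

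**Figure D1:**
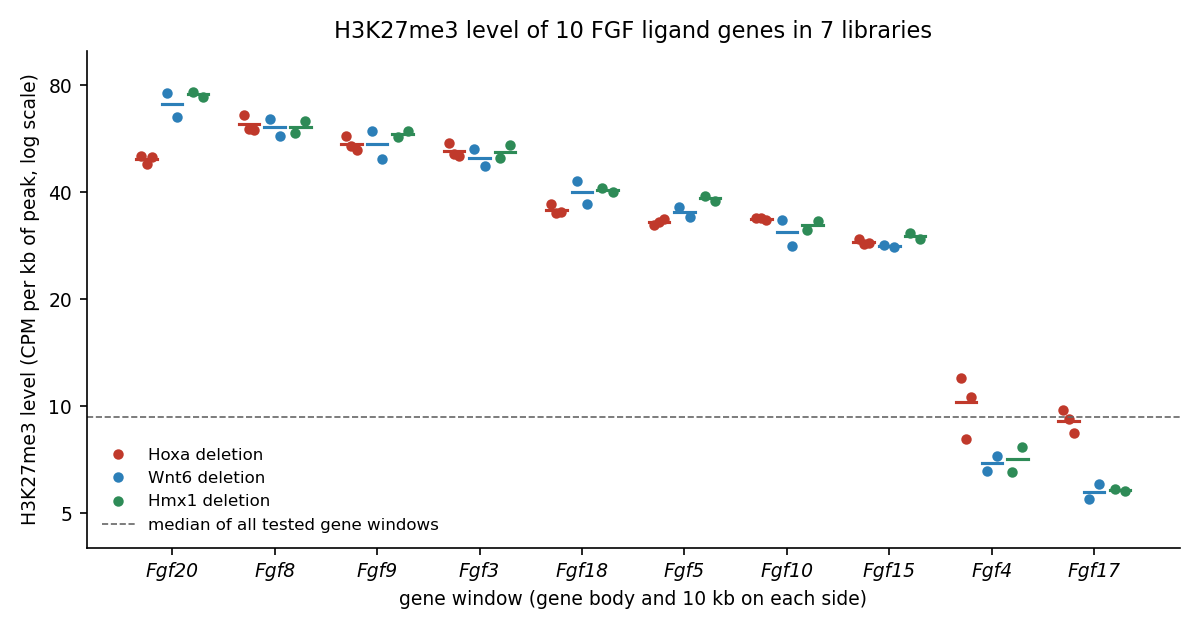
H3K27me3 level (CPM per kb of peak, log axis) of the 10 FGF ligand gene windows, ordered by mean. Each point is 1 library, the short bars are the means of the 3 Hoxa, 2 Wnt6 and 2 Hmx1 deletion libraries, and the dashed line is the median of all tested gene windows (9.36). Fgf4 and Fgf17 sit far below the other 8 genes. The Hoxa deletion libraries lie above all others at Fgf4 and Fgf17, as in 16.5% of all windows. They lie below all others at Fgf20, Fgf18 and Fgf5, as in 9.24% of all windows, those of chromosome 8 included.

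In the upper tier, Fgf20, a ligand needed in the inner ear and kidney, had the highest mean (63.0 ± 13.1, SD, n = 7), followed by Fgf8, which acts in gastrulation and in the limb and brain (61.5 ± 3.19), Fgf9, which acts in testis and lung (55.7 ± 3.73), and Fgf3, a ligand of inner ear development (51.6 ± 2.67). The ranges of these neighbours over the 7 libraries overlapped. The place of Fgf20 depended on the deletion, since it lay above Fgf8 in all Wnt6 and Hmx1 deletion libraries and below Fgf8 in all Hoxa deletion libraries. Below a gap came Fgf18, a skeletal growth regulator (38.4 ± 3.09), Fgf5, a marker of the primed epiblast and regulator of the hair cycle (35.2 ± 2.58), Fgf10, required for limb and lung buds (32.5 ± 2.07), and Fgf15, the mouse counterpart of the endocrine hormone FGF19 that restrains bile acid synthesis (29.1 ± 0.923). These neighbours overlapped as well, whereas the range of Fgf3 did not overlap that of Fgf18 and the range of Fgf15 did not overlap that of Fgf4. The order, and the genes on each side of the upper gap, depended on the peaks taken. With each gene's strongest peak alone, Fgf8 (95.4) lay above Fgf20 (74.2) and Fgf5 (65.5) above Fgf3 (62.8). With peaks over the gene body alone, Fgf15 (46.1) lay above Fgf18 (45.3), Fgf5 (42.5) and Fgf10 (32.5). Fgf4 and Fgf17 stayed the lowest in both. Fgf4 (8.40 ± 2.12) and Fgf17 (7.22 ± 1.83), a close relative of Fgf8 and Fgf18, overlapped each other. The level of Fgf17 was thus unlike that of Fgf8 and Fgf18, which belong to the same subfamily.

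The shape of the marked region differed between members. The 48 peaks were 240 to 3637 bp wide with a median of 460.5 bp, close to the median of 476 bp over all peaks, and 13 exceeded 1 kb. Peak positions are those of the deposited table. In the upper tier a single broad peak carried most of the counts of several genes. At Fgf3 a peak of 3637 bp over the gene's start (chr7:144836994-144840631) reached 62.8 ± 3.44 CPM per kb and held 94.9% of the window's counts. At Fgf20 a peak of 1798 bp over the upper-coordinate end of the gene (chr8:40285672-40287470) held 97.2%, and at Fgf10 the only peak (1965 bp, chr13:118714072-118716037) covered the start.

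Other members carried the mark over several peaks. At Fgf8 the highest peak of all members (chr19:45736918-45737768, within the gene) reached 95.4 ± 5.73 CPM per kb, and a broader peak over the gene's upper-coordinate end (2596 bp) held more of the counts (58.0%). At Fgf9 the highest peak lay within the gene (chr14:58074619-58076869, 85.0 ± 6.00), beside a peak of 71.3 ± 5.16 at its lower-coordinate end. At Fgf18 a peak of 3357 bp over the start (chr11:33145144-33148501, 51.7 ± 4.47) and one inside the gene (51.4 ± 5.77) differed by less than their spread over libraries. At Fgf5 a peak over the start (62.3 ± 5.87) and a narrower one inside the gene (chr5:98255750-98256507, 65.5 ± 3.15) did likewise. Of the 10 members, all had a peak that overlapped the gene body. For 9 of them the peak with the highest mean over the 7 libraries was such a peak. At Fgf17 that peak (chr14:70635591-70636074, 10.6 ± 2.62) overlapped the neighbouring genes Dmtn and Gm38605, although in the Hoxa deletion its mean (9.90) was below that of the peak over Fgf17 itself (10.8).

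Fgf3, Fgf4 and Fgf15 lie within 62.3 kb of chromosome 7, with Fgf4 in the middle, 18.0 kb from Fgf3 and 31.3 kb from Fgf15. The mark was high at both outer genes and low between them. The peak over the Fgf3 start had 62.8 CPM per kb, and the peak at the lower-coordinate end of Fgf15 (chr7:144895511-144897494) had 47.3. The peak over the Fgf4 start (chr7:144860968-144861721) had 8.54 ± 3.59, and no peak of the table lay over the rest of Fgf4. The drop from Fgf3 to Fgf4 was present in every library, since the highest Fgf4 window level (12.0) lay below the lowest of Fgf15 (28.1) and of Fgf3 (47.3).

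**Figure D2:**
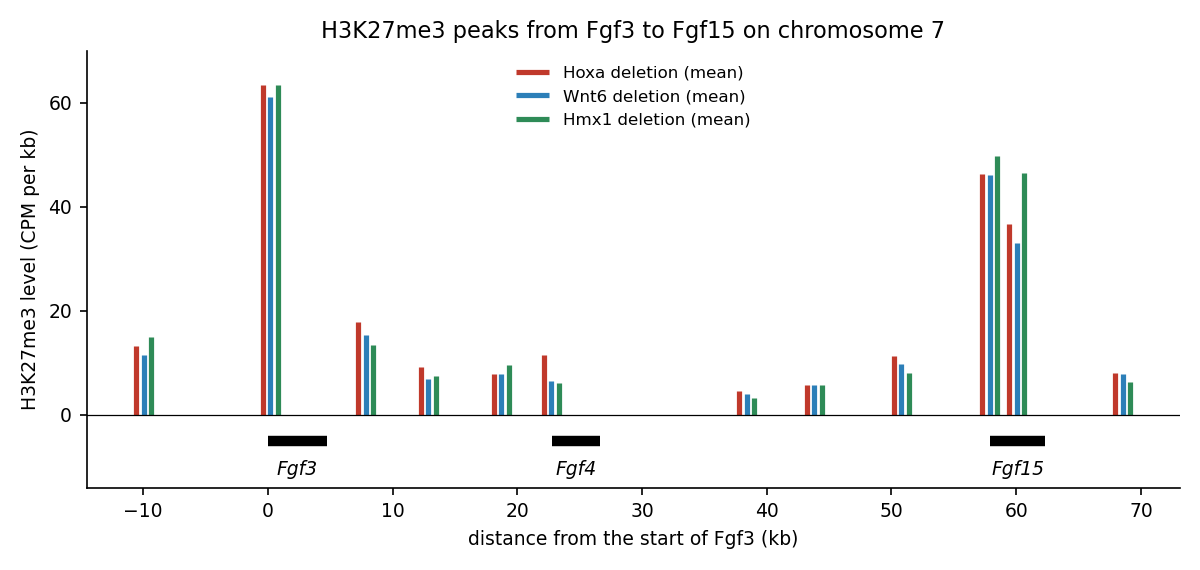
H3K27me3 level (CPM per kb, mean of each deletion's libraries) of the 12 peaks from Fgf3 to Fgf15, by distance from the Fgf3 start in kb, with gene bodies as black bars. The peak at the Fgf3 start (62.8 over all libraries) and those at Fgf15 (47.3 and 38.4) stand above the peak at the Fgf4 start (8.54), where the Hoxa deletion mean (11.5) exceeded those of the Wnt6 (6.58) and Hmx1 (6.09) deletions.

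The first comparison asked whether the Hoxa deletion, on chromosome 6, came with a different H3K27me3 level at these genes, none of which lies on that chromosome. By edgeR's quasi-likelihood test on all 30955 tested windows, 3 of the 10 member windows passed an adjusted p of 0.05, beside 18.3% of all windows. Fgf17 and Fgf4 were higher in the Hoxa deletion (12.2% of all windows were called higher) and Fgf20 was lower (6.13% were called lower), though not once the shift of its whole chromosome was removed. An unadjusted p under 0.05 was found for 5 members (29% of all windows). None reached a log2 fold change of 1, and the median over the members was 0.0080 beside 0.05 over all windows. When all windows are split by level into 10 bins, the upper-tier members lie in bins 9 and 10. The medians of those bins were 0.01 and -0.02. In this assay a lower level can come from fewer cells that carry the mark, from less of it per cell or from fewer copies of the DNA. These cannot be told apart here.

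**Figure D3:**
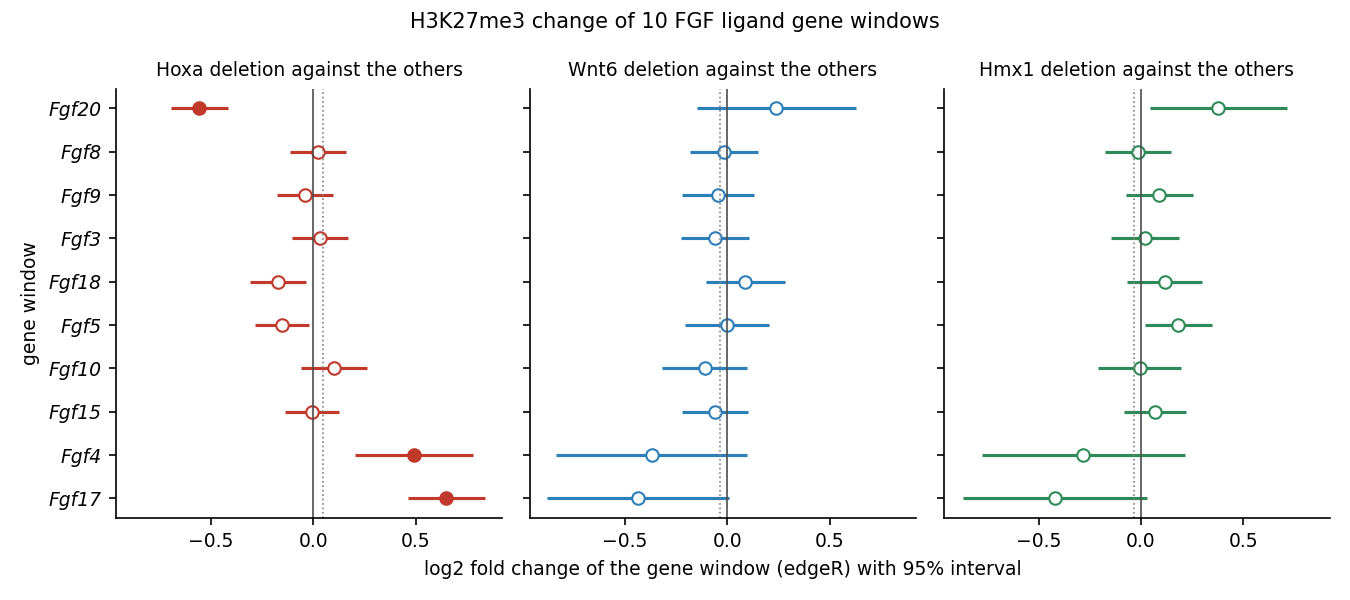
Log2 fold change of each FGF ligand gene window with its 95% interval (edgeR) for each deletion against the other 2 pooled. Filled points passed an adjusted p of 0.05, open points did not, and the dotted line is the median of all windows. Fgf20, Fgf4 and Fgf17 passed in the Hoxa deletion and no member passed in the Wnt6 or Hmx1 deletion.

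At Fgf17, a ligand of the developing brain, the Hoxa deletion libraries had 9.75, 9.22 and 8.40 CPM per kb, the Wnt6 deletion libraries 5.48 and 6.04, and the Hmx1 deletion libraries 5.85 and 5.76. All 3 Hoxa deletion libraries lay above all others, as in 16.5% of all windows, and the other deletions overlapped. The mean was 1.58-fold that of the other libraries (log2 fold change 0.65, SE 0.093, edgeR adjusted p = 7.8e-07). The call held under each of the 22 alternatives tried, with log2 fold changes from 0.56 to 0.92 and adjusted p between 1.5e-10 and 1.6e-04. Among the 3096 windows nearest to it in level, when all windows are split by level into 10 bins, 3.29% had a larger log2 fold change in the Hoxa deletion, and the median was 0.09.

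The rise at Fgf17 was spread over its window. Of 9 peaks, 8 had a positive log2 fold change in the Hoxa deletion, and 4 of these had an adjusted p under 0.05 (8.52% of all peaks). In 5 every Hoxa deletion library lay above all others, as in 9.09% of all peaks. These peaks make up the sum that was called, so their directions are not separate support for the call. The peak over the upper-coordinate end of the gene itself (chr14:70641457-70642449) had 10.5, 11.2 and 10.7 CPM per kb in the Hoxa deletion, 4.25 and 5.29 in the Wnt6 deletion, and 7.16 and 6.43 in the Hmx1 deletion. That peak rose by a log2 fold change of 0.92 in the Hoxa deletion (SE 0.160, adjusted p = 4.7e-05), and the Hoxa deletion did not overlap the others. Part of the window belongs to the neighbour Dmtn, which encodes a protein of the red cell membrane skeleton. The 5 peaks that overlap Dmtn were together 1.46-fold higher in the Hoxa deletion and the 4 that do not were 1.74-fold higher. The rise was thus not confined to the peaks over Dmtn. Of those 4, only the peak at chr14:70641457-70642449 overlaps Fgf17, and it held 21.3% of the window's counts. The one at chr14:70652259-70653050 overlaps the neighbours Npm2 and Gm52133, and the others overlap no RefSeq gene.

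**Figure D4:**
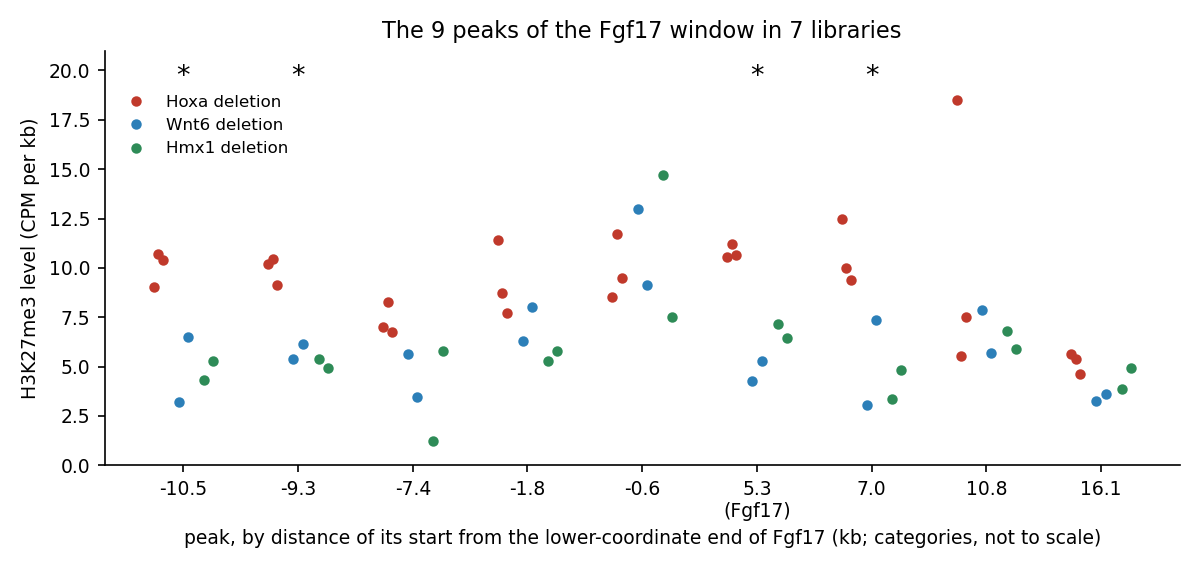
H3K27me3 level (CPM per kb) of the 9 peaks of the Fgf17 window in each of the 7 libraries, ordered by position relative to the lower-coordinate end of the gene. Asterisks mark the 4 peaks with an adjusted p under 0.05 in the Hoxa deletion, and the peak that overlaps Fgf17 is named. Hoxa deletion points lie above all others in 5 of the 9 peaks.

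At Fgf4 the Hoxa deletion libraries had 12.0, 8.10 and 10.7 CPM per kb, the Wnt6 deletion libraries 6.56 and 7.26, and the Hmx1 deletion libraries 6.52 and 7.70. The Hoxa deletion libraries again lay above all others, though the second of them by little. The mean was 1.46-fold that of the others (log2 fold change 0.49, SE 0.143, adjusted p = 0.0109). Among the 3095 windows of its level bin, 7.17% had a larger log2 fold change in the Hoxa deletion, and the median was 0.09. Within the window the peak over the Fgf4 start differed most, with 14.2, 7.41 and 12.8 in the Hoxa deletion, 6.01 and 7.15 in the Wnt6 deletion, and 4.49 and 7.68 in the Hmx1 deletion (log2 fold change 0.72, adjusted p = 0.00845). There the second Hoxa deletion library lay among the others. The call rests on few counts (52 to 375 per library) and was lost without Hoxa deletion replicate 1 (log2 fold change 0.38, adjusted p = 0.108) and without Hoxa deletion replicate 3 (0.44, adjusted p = 0.0512). The adjusted p ranged from 0.0023 to 0.108 over the 22 alternatives.

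At Fgf20 the Hoxa deletion libraries had 50.5, 48.1 and 50.1 CPM per kb, the Wnt6 deletion libraries 76.2 and 65.3, and the Hmx1 deletion libraries 76.7 and 74.1. All 3 Hoxa deletion libraries lay below all others, at 67.8% of their mean (log2 fold change -0.56, SE 0.069, adjusted p = 4.4e-08). Both peaks of the window were lower, the broad one with a log2 fold change of -0.56 (adjusted p = 1.7e-06) and the weaker one with -0.66 (adjusted p = 0.0489). Fgf20 was not singular on its chromosome. Over the 1853 windows of chromosome 8 the median log2 fold change in the Hoxa deletion was -0.53 (quartiles -0.65 and -0.38), 69.6% of them were called lower, and the medians of the other 18 autosomes lay between 0.04 and 0.13. Fgf20 differed from the median of chromosome 8 by -0.03, and 43.2% of that chromosome's windows were lower still, against 1.59% of the windows elsewhere. When the median of each chromosome was removed in each library, the log2 fold change of Fgf20 became 0.02 (adjusted p = 0.898), so that the call did not survive. The DNA copy number of chromosome 8 in these cells was not measured.

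**Figure D5:**
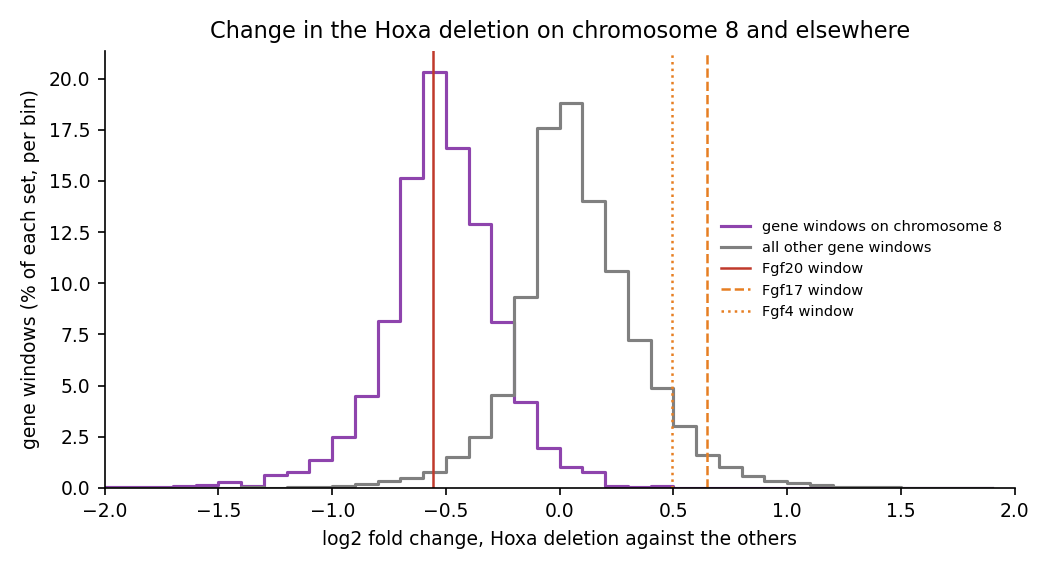
Distribution of the log2 fold change in the Hoxa deletion over the 1853 gene windows on chromosome 8 and over all other windows, as the percent of each set per bin. The line for Fgf20 (-0.56) falls at the centre of chromosome 8 (median -0.53), and those for Fgf4 (0.49) and Fgf17 (0.65) fall in the upper tail of the other chromosomes.

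The remaining 7 members did not pass the test in the Hoxa deletion. Their log2 fold changes lay between -0.17 and 0.10, and their 95% intervals between -0.31 and 0.26, so that for each a difference of 0.5 on the log2 scale lay outside its interval. Fgf18 (log2 fold change -0.17, adjusted p = 0.067) and Fgf5 (-0.15, adjusted p = 0.0987) were the nearest to the threshold, with every Hoxa deletion library below all others, as in 9.24% of all windows. That share includes chromosome 8, where 69.6% of windows were called lower. On chromosome 11, which holds Fgf18, 1.73% were called lower, and on chromosome 5, which holds Fgf5, 2.29%. At Fgf18 the Hoxa deletion libraries had 37.0, 35.0 and 35.1 CPM per kb against 43.0, 37.1, 41.1 and 40.1 in the others, a gap of less than the spread within the Wnt6 deletion. Without Wnt6 deletion replicate 2 both would be called (Fgf18 -0.21, adjusted p = 0.0073, and Fgf5 -0.19, adjusted p = 0.0164), and the number of member windows called would be 5. Both were also called with library totals alone (adjusted p = 0.0154 and 0.0497) and with offsets that follow the level of the mark (adjusted p = 0.0067 and 0.0265). Fgf18 was called too with 3 genotype terms, after downsampling, with chromosome offsets and by the peaks over its gene body alone, and Fgf5 by the peaks within 20 kb and against the Hmx1 deletion alone. Fgf3, Fgf8, Fgf9, Fgf10 and Fgf15 had log2 fold changes between -0.11 and 0.10 in all 3 comparisons, with intervals between -0.32 and 0.26. Over the 7 libraries they ranged from 47.3 to 55.1 CPM per kb at Fgf3, from 57.8 to 66.2 at Fgf8, from 49.6 to 59.6 at Fgf9, from 28.2 to 33.9 at Fgf10 and from 28.1 to 30.8 at Fgf15. Wnt6 deletion replicate 2, the library with the most counts (36563541), was the lowest of the 7 at each of these 5 genes, and the part of depth in this was not tested.

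In single peaks the log2 fold changes in the Hoxa deletion ranged from -0.66 to 0.99. At an adjusted p of 0.05 with a log2 fold change over 1 in either direction, 0 of the 48 member peaks were called in the Hoxa deletion by edgeR, beside 1.55% of all peaks, and DESeq2 called 1. Of the 48, 15 had an unadjusted p under 0.05 (20.8% of all peaks). Without the minimum on the fold, 7 peaks passed (5 higher and 2 lower), beside 8.52% of all peaks. They were 4 of Fgf17, 1 of Fgf4 and both of Fgf20, the same genes as those called by window. The windows are sums of these peaks, so the peak and window calls are not independent.

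The next comparison asked the same of the Wnt6 deletion, on chromosome 1. Of the 10 member windows 0 passed in edgeR's test and in that of DESeq2, beside 0.0452% of all windows, and 0 had an unadjusted p under 0.05 (5.76% of all windows). The member with the smallest p was Fgf17 (log2 fold change -0.44, SE 0.204, adjusted p = 0.837), and this comparison sets the Wnt6 deletion against a pool that holds the Hoxa deletion libraries. Against the Hmx1 deletion alone the value was 0.0036 (SE 0.117, adjusted p = 0.996), and against the Hoxa deletion alone it was -0.65 (adjusted p = 1.8e-06). The comparisons share all 7 libraries, so that this value is not independent of the one for the Hoxa deletion. Of the 48 member peaks 0 were called with a fold minimum, by edgeR and by DESeq2, beside 0.0497% of all peaks, and 2 had an unadjusted p under 0.05 (5.2% of all peaks).

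The last comparison concerned the Hmx1 deletion, which lies on chromosome 5 together with Fgf5. Of the 10 member windows 0 passed in edgeR's test and in that of DESeq2, beside 0.0517% of all windows, and 2 (Fgf20 and Fgf5) had an unadjusted p under 0.05 (13.3% of all windows). Fgf5 lies 62.9 Mb from the deleted stretch. Its window had 39.0 and 37.8 CPM per kb in the Hmx1 deletion, 32.3, 33.1 and 33.6 in the Hoxa deletion, and 36.3 and 34.0 in the Wnt6 deletion. Both Hmx1 deletion libraries lay above all others, as in 6.71% of all windows, by a log2 fold change of 0.18 (SE 0.075, adjusted p = 0.321), with a 95% interval from 0.02 to 0.35. Against the Hoxa deletion alone the difference passed (0.22, adjusted p = 0.0239), and against the Wnt6 deletion alone it was 0.13 (adjusted p = 0.616). Against the others pooled, Fgf20 differed by 0.38 on the log2 scale (SE 0.154, adjusted p = 0.316), against the Hoxa deletion alone by 0.60 (adjusted p = 3.2e-09) and against the Wnt6 deletion alone by 0.10 (adjusted p = 0.754). On chromosome 8 as a whole the median against the others pooled was 0.28. Of the 48 member peaks 0 were called with a fold minimum, by edgeR and by DESeq2, beside 0.0282% of all peaks, and 6 had an unadjusted p under 0.05 (8.96% of all peaks).

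A single test for any difference among the 3 deletions called Fgf17 (adjusted p = 7.5e-08), Fgf20 (adjusted p = 1.0e-09) and Fgf4 (adjusted p = 0.0244), 3 of 10 beside 19.1% of all windows. In this test Fgf4 was not called by DESeq2, which called 2 members, nor with the replicate block, with offsets that follow the level of the mark, or without Hoxa deletion replicate 1 or 3 or Wnt6 deletion replicate 1. Set against the Wnt6 deletion alone, the Hoxa deletion had log2 fold changes of 0.65 at Fgf17, 0.52 at Fgf4 and -0.51 at Fgf20. Set against the Hmx1 deletion alone, these were 0.65, 0.46 and -0.60. These values share the same Hoxa deletion libraries. Fgf4 was not called against the Hmx1 deletion (adjusted p = 0.0576). Over the 7 libraries the spread was 3.17% to 8.06% of the mean for the 7 members that were not called in the Hoxa deletion, and 20.8% to 25.4% for Fgf20, Fgf4 and Fgf17. The calls rest on differences among these same libraries, so a larger spread at the called genes is built in. Counting error alone gave 8.66% at Fgf4, 4.83% at Fgf17 and 2.42% at Fgf20.

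The rest of the pathway gave the setting. Of 29 other FGF pathway genes 27 had a window, and Fgf7 and the feedback inhibitor Spry4 had no peak within 10 kb. The receptors and co-receptors ranged from Fgfr4 (15.8 CPM per kb) through Klb (21.3), Fgfr1 (27.2), Fgfr2 (28.7), Fgfrl1 (45.2) and Kl (55.3) to Fgfr3 (60.8). The 4 intracellular FGF homologous factors, which are not secreted, lay between 34.6 and 48.1, and the 7 other ligands between 4.63 and 36.1. The feedback inhibitors and targets, among them Spry1, Spry2, Dusp6 and Etv4, lay between 3.91 and 19.4, each below the mean of every upper-tier ligand, with Il17rd (18.8) and Flrt3 (19.4) the highest.

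In the Hoxa deletion 3 of these 27 windows passed the test (18.3% of all windows). Fgfr2, the receptor of Fgf10, was lower (log2 fold change -0.31, SE 0.068, adjusted p = 0.00079), Fgf11, a homologous factor, was higher (0.21, adjusted p = 0.0156), and Fgf21, an endocrine ligand of the fasting response, was higher (0.29, adjusted p = 0.043). DESeq2 also called 3, namely Fgfr2, Fgf11 and Spry1, and not Fgf21. The median over the 27 was 0.02 beside 0.05 over all windows. By edgeR, 0 of the 27 passed in the Wnt6 deletion, and 0 by DESeq2. An unadjusted p under 0.05 was found for 3 (5.76% of all windows). In the Hmx1 deletion 0 passed by edgeR, with 2 at an unadjusted p under 0.05 (13.3% of all windows), and DESeq2 called 1, Fgfr4. The test among the 3 deletions called 6 of the 27, beside 19.1% of all windows.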

How the data were processed

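The authors deposited 1 table of raw counts, not normalized, over 74458 peaks for 7 H3K27me3 libraries. The 7 IgG libraries, which have no column in it, were not analysed here, and no background was taken off. Per the labels, build mm10 and Bowtie2, Trimmomatic, SAMtools, Picard, MACS2 and deepTools were used. How the peak list was made, which can favour the libraries it was called on, and whether reads or fragments were counted are not given in the sources used here. Counts of PCR products are not independent molecules.

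Peaks within 10 kb of a RefSeq gene body were summed per gene, so neighbouring genes share peaks. Counts were fitted with edgeR 4.0.16 in R 4.3.3 (TMM factors from all peaks, filterByExpr, quasi-likelihood test), 1 deletion against the other 2 pooled, with Benjamini-Hochberg adjustment over 74441 peaks or 30955 windows. DESeq2 1.42.0 was an alternative. Standard errors came from the F statistic. The fits were tested on simulated data with 100 changed features of each size and a dispersion set to 0.02, not estimated from these libraries. At a log2 change of 0.6 they recovered 30% to 38% of changed windows and 11% to 15% of changed peaks. At 1.5 they recovered 98% to 99% of windows and 84% to 94% of peaks. These shares belong to that setting and need not hold for these libraries. In the Hoxa deletion 18.3% of windows were called, Fgf20 among them at -0.56 (SE 0.069). A count of 0 calls still does not by itself exclude changes near 0.6. Replicates differed beyond sampling noise (chi-square per peak of 1.95 to 3.31).

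The members, gene lists and tests were chosen with earlier results of these data known. Statistics are given for each member window past the threshold, the smallest p per deletion, Fgf20 in the Hoxa and Fgf5 in the Hmx1 deletion, each member's highest peak, at most 3 pathway genes per comparison, and the receptors by level. Fgf18 and some peaks were added after their values were seen.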

Additional observations from a re-analysis of the deposited data

How the results depend on the processing

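The 10 member genes were recomputed under up to 23 alternatives. Peaks called in the Hoxa deletion (0 as reported) were 1 with DESeq2, with 3 genotype terms, against the Wnt6 deletion alone and with the replicate block, 2 against the Hmx1 deletion alone and after downsampling to the smallest library, 7 with no minimum on the fold, and 0 to 2 when 1 library was left out. Apart from the 7, these were peaks of Fgf17, or of Fgf4 without Hoxa deletion replicate 2. Against the Hoxa deletion alone, 1 peak was called in the Wnt6 deletion and 2 in the Hmx1 deletion, all of Fgf17. Windows called in the Hoxa deletion (3 as reported) were 5 with library totals alone, 0 with a fold over 1, and 2 to 5 when 1 library was left out, with the 5 reached without Wnt6 deletion replicate 2. Windows called in the Wnt6 deletion (0) were 1 with 3 genotype terms and 3 against the Hoxa deletion alone, and in the Hmx1 deletion (0) they were 2 and 3. Windows that differed among the deletions (3) were 5 with library totals alone and 2 to 5 when 1 library was left out, and DESeq2 gave 2, without Fgf4.

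The log2 fold change of Fgf20 in the Hoxa deletion turned to 0.021 with chromosome offsets, which remove the shift of the whole chromosome by construction, and that of Fgf17 in the Wnt6 deletion to 0.0036 against the Hmx1 deletion alone, which leaves out the Hoxa deletion libraries. Fgf4 in the Hoxa deletion lost its call with the replicate block (0.43, adjusted p = 0.0696), against the Hmx1 deletion alone, without Hoxa deletion replicates 1 or 3, and with offsets that follow the level of the mark (0.39, adjusted p = 0.0565), an alternative chosen after seeing the data. Fgf17 in the Hoxa deletion kept its call under all 22.

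Replicate numbers are shared between deletions, and the deviations of same-numbered libraries correlated between -0.05 and 0.08 over 6 pairs, so the numbers were not taken to pair libraries. The replicate block gave 2 called windows in the Hoxa deletion against 3 and lost the call of Fgf4. In the test among the deletions it lost Fgf4 and gained Fgf5 (adjusted p = 0.0378). The level of a member moved beyond its spread over libraries for 7 of 10 members when its strongest peak alone was taken. It did so for 5 members with windows of 0 kb, for 4 with 5 kb and for 5 with 20 kb. With library totals alone it did so for none. Depth limited Fgf4 (52 to 375 counts per library) and Fgf17 (175 to 1219) the most.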
